A study of Rattus norvegicus with 6 samples.

Results

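AMPA and kainate receptors are the ion channels that carry most fast excitatory signalling by glutamate in the brain. Their subunits are encoded by the genes Gria1 to Gria4 (AMPA) and Grik1 to Grik5 (kainate), and these 9 genes were looked up by name in tables of 30498 genes. A row was found for 8 of them, 3 AMPA and 5 kainate subunits. Gria3 had no row under that name and is not analysed here. The study compared brains of newborn rats (Rattus norvegicus), labelled whole brain, in 2 groups of 3 libraries. In the caloric restriction group (CR) the mothers' calories were restricted, a model of fetal growth restriction, and in the control group they were not. Pups of both groups were born by Caesarean section, their brains were dissected immediately, and polyadenylated RNA was sequenced. The extent and timing of the restriction, the rat strain and the sex of the pups are not stated in the labels. Whether libraries of a group came from separate litters is not stated either, so p-values measure only the spread between these libraries.

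Both receptor types are assemblies of 4 subunits around a channel. The AMPA subunits differ in what they bring to the receptor. GluA2, from Gria2, in its RNA-edited form keeps calcium out of the channel, and receptors without it let calcium pass. GluA4, from Gria4, gives fast gating and is known for high expression in early postnatal forebrain neurons and, in the mature brain, in brainstem, cerebellum and fast-spiking interneurons. Among kainate subunits, GluK1 to GluK3 can form channels alone, whereas GluK4 and GluK5 bind the ligand tightly and form working channels only with one of the other three.

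The depth of the libraries, 14030961 to 25734737 assigned reads, was derived from the deposited FPKM (fragments per kilobase of exon, scaled to the library's total) and the exon lengths. The label of whole brain was set beside regional markers. In control, 25 markers of regions caudal to the telencephalon (thalamus, hypothalamus, midbrain, hindbrain and cerebellum) summed to 8.28, 22.0 and 24.9 FPKM, and 4 of them (Pou4f2, Hoxa2, Hoxb3 and Hoxb5) were at 0 in all control libraries. In CR the 25 markers summed to 173, 225 and 209 FPKM. Of the 25, 22 averaged 0.5 FPKM or more over all libraries. In each of these 22, all CR libraries were above all control libraries, as in 26.1% of all tested genes. The markers of the control libraries thus go against the label of whole brain for the regions caudal to the telencephalon, and the groups differ in them as well as in the mothers' feeding. Over the same libraries 10 dorsal telencephalic markers summed to 490 to 600 FPKM in control and to 188 to 286 FPKM in CR, and 13 ventral telencephalic markers to 171 to 207 and to 130 to 153 FPKM. The summed level of 8 general neuron markers was 2873 to 3195 FPKM in control and 2963 to 3013 FPKM in CR, so the sums overlapped. Within these 8 genes, all CR libraries were above control in 3 and below it in 3. Of all tested genes, 26.1% were above and 24.3% below in the same way. Astrocyte markers (9 genes) summed to 779 to 946 FPKM in control and to 1217 to 1314 FPKM in CR, and oligodendrocyte precursor markers (5 genes) to 37.7 to 42.8 and to 48.6 to 54.5 FPKM. Microglia markers (5 genes) summed to 21.8 to 29.0 FPKM in control and to 36.8 to 42.6 FPKM in CR. The sums of regional and glial markers thus moved with the groups, and their part in the differences of receptor subunits was not tested. Single genes did not all follow their sum. Among the 13 ventral markers, all CR libraries were below control in 10 and above it in 2. The 1 endothelial marker found was at 3.56 to 3.58 FPKM in control and at 3.29 to 4.98 FPKM in CR, so the groups overlapped. In bulk tissue, fewer cells of a type and less RNA per cell cannot be told apart.

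The comparison of CR with control asked whether receptor subunit RNA differed in the growth-restricted brain at birth. The AMPA subunit gene Gria4 and the kainate subunit genes Grik1, Grik4 and Grik5 were higher in CR, and the AMPA subunit gene Gria1 was lower. The largest difference was in Gria4, which was 2.15-fold higher in CR. Differences in Gria2, Grik2 and Grik3 did not pass the test. Of the 8 subunit genes 5 passed an adjusted p of 0.05 (limma on log2(FPKM + 1), adjusted over the 15247 genes that averaged 0.5 FPKM or more). Of all tested genes 33.9% passed, 17.7% as higher and 16.2% as lower in CR. Control and CR libraries did not overlap in 6 of the 8, against 50.3% of all tested genes, with CR above control in 4 (26.1% of all) and below it in 2 (24.3% of all). The median log2 fold change was 0.05 over the 8 subunit genes and 0.01 over all tested genes. Without CR replicate 2, 3 of the 8 passed, and without CR replicate 3 it was also 3.

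**Figure D1:**
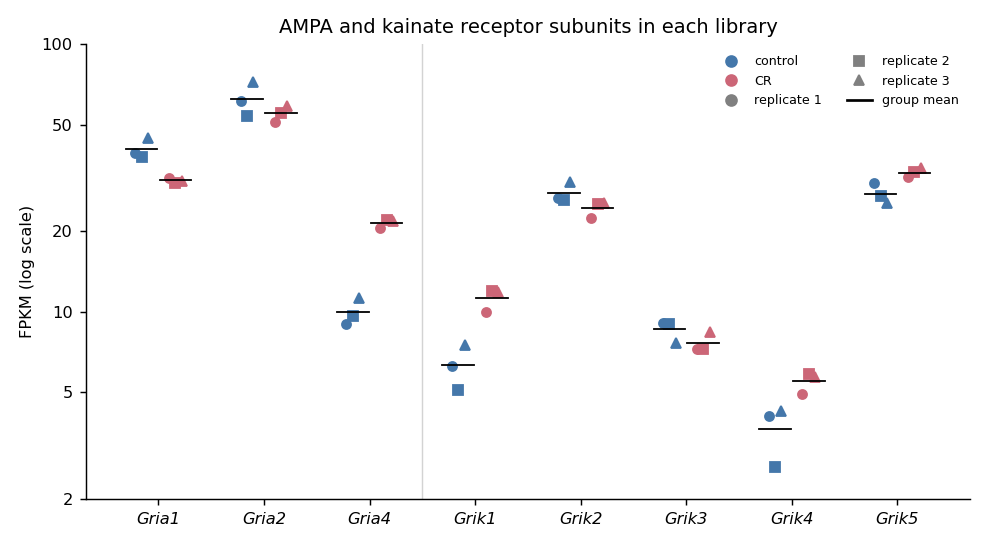
FPKM of each subunit gene (log axis) in the 3 control (blue) and 3 CR (red) libraries, with symbols for the replicate number and black lines for group means. For Gria4 the 3 CR libraries lie between 20.6 and 22.1 FPKM and the 3 control libraries between 9.01 and 11.2 FPKM.

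Gria1 encodes GluA1, a subunit whose delivery to synapses is regulated by activity. Gria1 (ENSRNOG00000045816, chr10:41210713-41527283, plus strand, mRatBN7.2) was at 39.0, 37.9 and 44.4 FPKM in the control libraries (replicates 1, 2 and 3, the order used throughout) and at 31.5, 30.3 and 30.9 FPKM in the CR libraries. The CR libraries lay close together and all below the lowest control library. The mean fell from 40.4 ± 3.46 (SD, n = 3) to 30.9 ± 0.582 FPKM, a log2 fold change of -0.37 (SE 0.0646, limma adjusted p = 0.00486).

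Gria2 had the highest level of the 8 subunit genes in both groups. Gria2 (ENSRNOG00000054204, chr2:165947521-166069510, minus strand) was at 61.2, 53.7 and 71.9 FPKM in control and at 51.0, 55.3 and 58.8 FPKM in CR. The groups overlapped, with the control libraries spread more widely than the CR libraries. Its log2 fold change was -0.17 with a 95% confidence interval from -0.41 to 0.07 (limma adjusted p = 0.248). It was -0.06 without control replicate 3 and -0.27 without control replicate 2. Gene-level values do not show what share of Gria2 RNA carried the edited codon of the channel pore, nor the flip and flop splice forms that all AMPA subunits have. Its exons share 40 nt with those of Mir2985 on the same strand.

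Gria4 (ENSRNOG00000006957, chr8:1562119-2034979, minus strand) was at 9.01, 9.68 and 11.2 FPKM in control, from 695 to 1349 reads. It was at 20.6, 22.1 and 21.8 FPKM in CR, from 2513 to 3120 reads. Each CR library was above the highest control library, and the gap between the groups was larger than the spread within either. The mean rose from 9.97 ± 1.13 to 21.5 ± 0.757 FPKM, a log2 fold change of 1.04 (SE 0.0812, 95% confidence interval 0.85 to 1.23, limma adjusted p = 0.000431). Of all tested genes 1.76% had a higher log2 fold change than Gria4.

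Among the channel-forming kainate subunits, Grik1 was the one that passed the test. Grik1 (ENSRNOG00000001575, chr11:27169740-27570645, minus strand), which encodes GluK1, was at 6.25, 5.11 and 7.53 FPKM in control and at 10.02, 11.99 and 11.9 FPKM in CR. All 3 CR libraries were above all 3 control libraries. The mean rose 1.79-fold, from 6.30 ± 1.21 to 11.3 ± 1.10 FPKM, a log2 fold change of 0.76 (SE 0.129, limma adjusted p = 0.00458).

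Grik2 encodes GluK2, the most abundant channel-forming kainate subunit in these libraries. Grik2 (ENSRNOG00000000368, chr20:52133851-52838375, minus strand) was at 26.7, 26.0 and 30.6 FPKM in control and at 22.4, 25.4 and 25.4 FPKM in CR. The CR libraries were below the control libraries, by a narrow gap between control replicate 2 and CR replicate 3, as in 24.3% of all tested genes. The log2 fold change of -0.18 (95% confidence interval -0.36 to 0.00) did not pass (limma adjusted p = 0.117). Grik3 (ENSRNOG00000008992, chr5:137767865-137984307, plus strand), which encodes GluK3, was at 9.07, 9.04 and 7.66 FPKM in control and at 7.23, 7.25 and 8.38 FPKM in CR. The groups overlapped, since control replicate 3 was below CR replicate 3 (log2 fold change -0.15, 95% confidence interval -0.36 to 0.06, limma adjusted p = 0.229).

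Both high-affinity kainate subunit genes were higher in CR, with calls that single libraries decided. Grik4 (ENSRNOG00000030910, chr8:42905056-43193751, minus strand), which encodes GluK4, had the lowest level of the 8 genes. It was at 4.07, 2.62 and 4.24 FPKM in control and at 4.95, 5.84 and 5.73 FPKM in CR, from 189 to 498 reads. Control replicate 2 was the low value of its group, and no control library reached the CR libraries. The log2 fold change of 0.50 (SE 0.150) passed with a limma adjusted p of 0.0360, and it did not pass without CR replicate 1 (0.0551), CR replicate 2 (0.115) or CR replicate 3 (0.107). Without control replicate 2 the log2 fold change was 0.33 (limma adjusted p = 0.0481).

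Grik5 (ENSRNOG00000020310, chr1:80605892-80667125, minus strand), which encodes GluK5, was at 30.3, 27.1 and 25.5 FPKM in control and at 31.8, 33.2 and 34.3 FPKM in CR. The groups did not overlap, though control replicate 1 and CR replicate 1 were close. The log2 fold change of 0.25 (SE 0.0694, limma adjusted p = 0.0260) was the smallest of the 5 that passed. It did not pass without control replicate 2 (limma adjusted p = 0.0705), control replicate 3 (0.0533), CR replicate 2 (0.0801) or CR replicate 3 (0.0926). The 3813 nt of Grik5 exon share 80 nt with exons of Zfp574 on the other strand, and whether reads were counted by strand is not stated. Zfp574 was at 3.36 FPKM on average against 30.4 FPKM for Grik5.

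**Figure D2:**
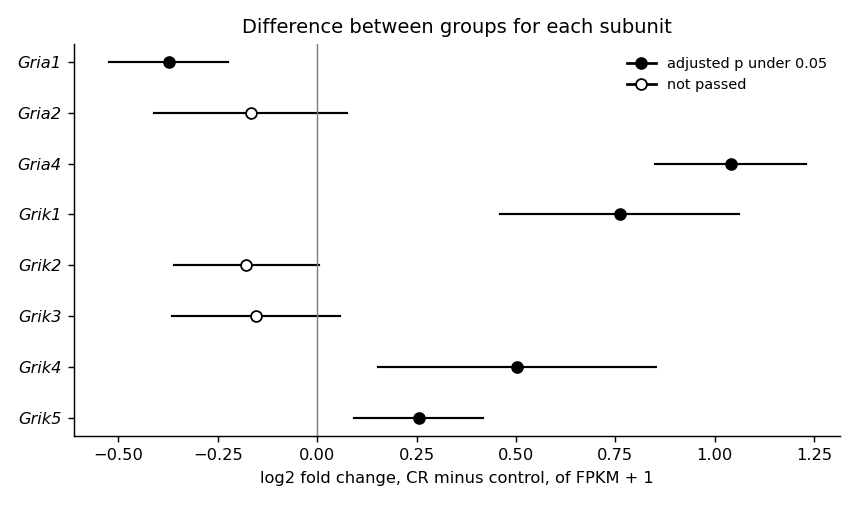
Log2 fold change of each subunit gene, CR minus control on the log2(FPKM + 1) scale, with 95% confidence intervals from limma over 3 libraries per group; filled points passed an adjusted p of 0.05. The interval of Gria4 runs from 0.85 to 1.23 and that of Gria1 from -0.52 to -0.22.

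FPKM is per length of exon, so levels could be set in order across the genes, as far as the annotated exon lengths hold. In control the order was Gria2, Gria1, Grik2, Grik5, Gria4, Grik3, Grik1 and Grik4, and the libraries of Grik2 and Grik5 overlapped, as did those of Gria4 and Grik3. In CR the order was Gria2, Grik5, Gria1, Grik2, Gria4, Grik1, Grik3 and Grik4, and no neighbours in that order overlapped. The gap between Grik5 and Gria1 was narrow, with the lowest CR library of Grik5 at 31.75 FPKM and the highest of Gria1 at 31.51 FPKM. Grik5 stood above Gria1 in CR and below it in control, and Grik1 stood above Grik3 in CR and below it in control. Within the control group, replicate 3 was the highest library for 6 of the 8 genes and replicate 2 the lowest for 5. Within CR, replicate 1 was the lowest for 7 of the 8.

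The make-up of each family was then compared, since shares of a family do not depend on how libraries are scaled. The summed FPKM of Gria1, Gria2 and Gria4 was 113 ± 13.4 in control and 107 ± 4.19 in CR, and the groups overlapped. Gria4 made up 8.25%, 9.56% and 8.80% of that sum in control and 20.0%, 20.5% and 19.5% in CR. The share of Gria1 went from 36.0% ± 1.34 to 28.8% ± 1.52 and that of Gria2 from 55.1% ± 1.86 to 51.2% ± 1.66, and all 3 CR libraries were below all 3 control libraries for both. For Gria2 the gap was narrow, with control replicate 2 at 53.0% and CR replicate 3 at 52.8%. These shares leave out Gria3.

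The summed FPKM of the 5 kainate genes was 73.9 ± 3.54 in control and 81.9 ± 4.90 in CR (exact permutation p = 0.1). The groups parted only by the narrow gap between control replicate 1 at 76.372 FPKM and CR replicate 1 at 76.375 FPKM. Grik1 made up 8.19%, 7.31% and 9.97% of the sum in control and 13.1%, 14.3% and 13.8% in CR. The share of Grik2 went from 37.6% ± 2.80 to 29.8% ± 0.490, and Grik3 from 11.7% ± 1.41 to 9.31% ± 0.579. The high-affinity pair Grik4 and Grik5 together went from 42.3% ± 2.82 to 47.1% ± 0.782. For Grik5 alone the share went from 37.4% ± 3.18 to 40.4% ± 1.00, with a narrow gap between control replicate 1 at 39.67% and CR replicate 2 at 39.70%. The ratio of the AMPA sum to the kainate sum was 1.43, 1.45 and 1.69 in control and 1.35, 1.29 and 1.30 in CR. In 10 of the 12 shares and ratios tested the groups did not overlap, and each of the 10 had p = 0.10 in a two-sided exact permutation test over libraries, the smallest that 3 against 3 allows (0.12 after Benjamini-Hochberg adjustment over the 12), so none could reach 0.05. The shares of a family sum to 100% and are not independent of each other, and the share of the pair repeats those of Grik4 and Grik5.

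The other 2 quantities set the receptor sums beside neuronal RNA. The AMPA sum was 3.75%, 3.17% and 4.44% of the summed neuron markers in control and 3.42%, 3.58% and 3.76% in CR (exact permutation p = 0.8). The kainate sum was 2.62%, 2.19% and 2.63% in control and 2.53%, 2.78% and 2.89% in CR (exact permutation p = 0.3). The groups overlapped for both. From 83.1% to 85.8% of the marker sum came from Tubb3 and Stmn2, which encode a neuronal tubulin and a microtubule regulator. Of the 8 neuron markers, 3 were called higher in CR, 1 was called lower and 4 did not pass. Of all tested genes, 17.7% were called higher and 16.2% lower. The marker sum is thus not a fixed reference for neuronal RNA.

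**Figure D3:**
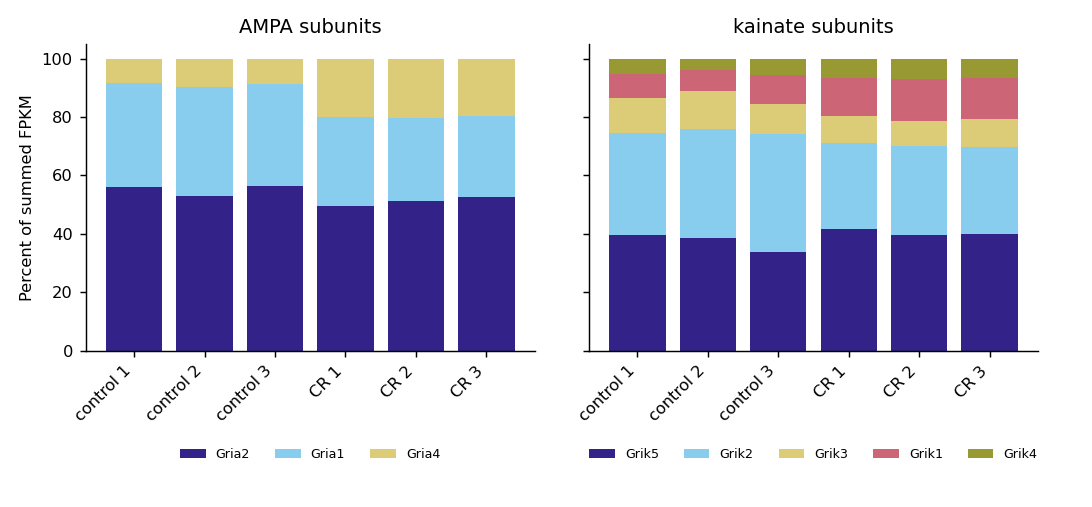
Percent of summed FPKM from each subunit gene in each library, as stacked bars, for 3 AMPA genes (left, Gria3 not included) and 5 kainate genes (right). The band of Gria4 is 8.25% to 9.56% in control and 19.5% to 20.5% in CR, and that of Grik1 is 7.31% to 9.97% and 13.1% to 14.3%.

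Promoter windows were available for Gria4 and the 5 kainate genes (6 of the 9), from RefSeq on build GRCr8. The 250 bases before the start are shown for the pair that rose most, Gria4 (chr8:10319882-10320131, minus strand) and Grik1 (chr11:41056504-41056753, minus strand), and for Grik3 (chr5:143052192-143052441, plus strand), which did not pass. Each is written 5′ to 3′ on the strand of the gene. Capitals mark the letters CAGCTG, an E-box of the form bound by neuronal basic helix-loop-helix factors, and GGGCGG or its reverse complement, a GC box. The motifs do not overlap each other in these windows, apart from the repeat in Gria4, where copies lie end to end.
Gria4: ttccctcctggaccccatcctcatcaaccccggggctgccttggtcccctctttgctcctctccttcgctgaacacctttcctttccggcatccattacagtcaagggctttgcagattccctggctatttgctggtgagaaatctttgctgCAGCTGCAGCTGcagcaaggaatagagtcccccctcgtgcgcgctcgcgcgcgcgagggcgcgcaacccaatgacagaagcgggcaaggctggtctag
Grik1: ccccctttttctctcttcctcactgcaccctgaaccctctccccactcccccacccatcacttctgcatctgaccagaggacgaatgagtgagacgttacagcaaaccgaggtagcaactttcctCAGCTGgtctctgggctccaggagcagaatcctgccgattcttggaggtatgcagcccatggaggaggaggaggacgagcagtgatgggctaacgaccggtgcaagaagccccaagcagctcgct
Grik3: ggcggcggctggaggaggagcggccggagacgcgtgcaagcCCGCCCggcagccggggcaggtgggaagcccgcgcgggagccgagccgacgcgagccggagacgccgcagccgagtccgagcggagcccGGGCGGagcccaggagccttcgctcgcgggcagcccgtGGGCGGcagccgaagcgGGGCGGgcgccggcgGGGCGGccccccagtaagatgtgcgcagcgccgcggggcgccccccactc
The Gria4 window held 2 copies of CAGCTG and the Grik1 window 1 copy, and neither held GGGCGG on either strand. The Grik3 window held 5 copies of GGGCGG on both strands together and no CAGCTG, and the Grik5 window held 1 copy of GGGCGG. No GGGCGG was in the windows of Grik4 and of Grik2, which also did not pass. Of 33469 RefSeq windows of the same length, 11.97% held CAGCTG and 30.5% held GGGCGG on either strand. No CAGCTG was in the windows of Grik2, Grik4 and Grik5, of which Grik4 and Grik5 were also called higher. The count of CpG in the window was 14 for Gria4, 8 for Grik1 and 41 for Grik3, against a median of 5 over all windows. It was 5 for Grik2, 3 for Grik4 and 10 for Grik5. Such matches are descriptions of the letters and not of binding.

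Receptor subunits travel and gate with auxiliary proteins, and a list of 22 genes of AMPA receptor auxiliary subunits and assembly was compared in the same fit. In it 10 were higher in CR, none was lower and 12 did not pass, which is 45.5% called against 33.9% of all tested genes. By direction, 17.7% of all tested genes were called higher and 16.2% lower. The median log2 fold change of the list was 0.08. Gsg1l, an auxiliary subunit that slows recovery from desensitization, was at 4.96, 4.74 and 5.61 FPKM in control and at 10.03, 11.1 and 11.8 FPKM in CR (log2 fold change 0.97, limma adjusted p = 0.000595). Cacng2, which encodes stargazin, the founding TARP (transmembrane AMPA receptor regulatory protein) that cerebellar granule cells need for surface AMPA receptors, was at 11.3, 9.87 and 10.1 FPKM in control and at 18.3, 19.1 and 21.2 FPKM in CR (0.84, adjusted p = 0.000623). For both genes every CR library was above every control library by more than the spread within a group.

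Shisa9, an auxiliary subunit that shapes short-term plasticity, rose from 6.69 ± 0.538 to 11.0 ± 0.316 FPKM (limma adjusted p = 0.00130). Cacng5, another TARP gene, was at 2.90, 1.47 and 1.64 FPKM in control and at 3.20, 3.58 and 3.36 FPKM in CR (log2 fold change 0.57, limma adjusted p = 0.0365). Its call was lost without any 1 of control replicates 2 and 3 and CR replicates 1 to 3 (adjusted p = 0.0755 to 0.112).

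The 5 kainate auxiliary genes went both ways, with 1 higher, 3 lower and 1 that did not pass, where 17.7% of all tested genes were called higher and 16.2% lower. C1ql2, a secreted C1q-like protein that gathers kainate receptors at mossy fibre synapses, was at 0.447, 0.701 and 0.454 FPKM in control and at 5.66, 5.73 and 4.72 FPKM in CR, from 6 to 141 reads per library. It rose 10.1-fold in group means, and on the log2(FPKM + 1) scale by 2.05 (SE 0.116, limma adjusted p = 0.000133). The Neto proteins are transmembrane partners that slow the gating of kainate receptors. Neto2 fell from 33.9 ± 1.54 to 27.0 ± 0.659 FPKM (limma adjusted p = 0.00352) and Neto1 from 14.4 ± 2.22 to 9.62 ± 1.35 FPKM (adjusted p = 0.0167). The call for Neto1 was lost without control replicate 2 (limma adjusted p = 0.0501) and without CR replicate 2 (0.0605). Klhl24, which encodes a protein that binds the GluK2 C-terminus, fell from 37.7 ± 0.495 to 26.4 ± 1.43 FPKM (adjusted p = 0.000944).

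Of 16 tested genes of scaffolds, pentraxins and trafficking, 4 were higher in CR, 4 were lower in CR and 8 did not pass (Dlg3 had no row and is not analysed here). Of all tested genes, 17.7% were called higher and 16.2% lower. Nptx2, a secreted pentraxin that clusters AMPA receptors and regulates GluA4 at synapses on interneurons, was at 4.04, 3.77 and 4.84 FPKM in control and at 7.53, 9.70 and 8.43 FPKM in CR (log2 fold change 0.87, limma adjusted p = 0.00183). Nsf, the ATPase that binds the GluA2 tail and recycles SNARE complexes, rose from 31.2 ± 5.81 to 56.1 ± 4.52 FPKM (adjusted p = 0.00266). Dlg2, a synaptic scaffold of the PSD-95 family, fell from 13.3 ± 0.292 to 8.53 ± 0.539 FPKM (adjusted p = 0.00113). Arc, an activity-induced gene whose protein promotes removal of AMPA receptors from the surface, fell from 1.78 ± 0.468 to 0.773 ± 0.232 FPKM (adjusted p = 0.0190), a call lost without control replicate 1, control replicate 2, CR replicate 1 or CR replicate 3 (adjusted p = 0.0526 to 0.0687). The count of 8 called genes in this list became 5 without control replicate 2 and without each CR library in turn.

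The ADAR family of adenosine deaminases includes the enzymes that edit the pore codon of Gria2 and of kainate subunits, and Adarb2, which has no known editing activity. None of its 3 genes passed the threshold with limma. None had an unadjusted p under 0.05, and limma-voom called none. Adarb1, which encodes the main editor of Gria2, was at 8.65, 8.01 and 8.70 FPKM in control and at 7.39, 8.30 and 8.41 FPKM in CR (log2 fold change -0.07, limma adjusted p = 0.519). Adar was at 19.5 ± 1.07 and 17.9 ± 0.552 FPKM (adjusted p = 0.151).

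**Figure D4:**
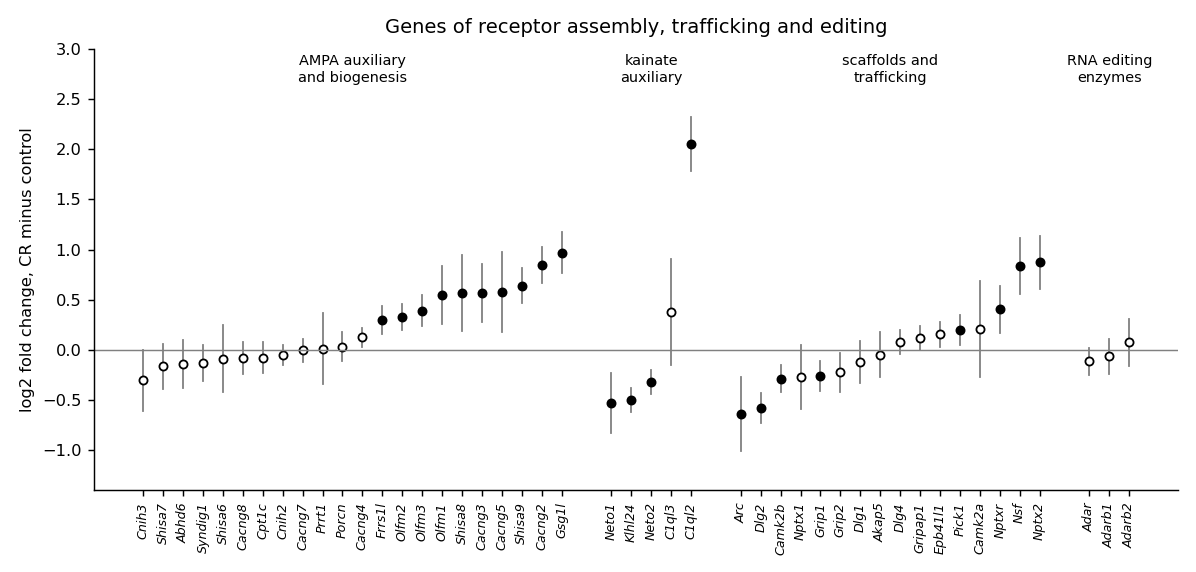
Log2 fold change (CR minus control, log2(FPKM + 1) scale) of each gene in 4 lists of receptor partners, with 95% confidence intervals from limma; filled points passed an adjusted p of 0.05. In the list of AMPA partners all filled points are above 0, and C1ql2 at 2.05 is the highest point.

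The genes whose pattern over the 6 libraries was most like that of 2 subunit genes were looked up among 12227 named genes that averaged 1 FPKM or more. For Gria2, the subunit gene with the highest level, these were Aebp2 (Pearson r = 0.991), Chd9 (0.991) and Shisa7 (0.990), of which Shisa7 encodes an AMPA receptor auxiliary protein and is in the list above. Shisa7 was at 16.1, 14.1 and 18.1 FPKM in control and at 13.0, 14.3 and 15.4 FPKM in CR. For Gria4, the subunit gene with the largest difference, they were Reep5 (r = 0.999), Ass1 (0.999) and Prune1 (0.999). These r describe 6 points that fall into 2 groups and share their libraries. They were picked as the highest among 12227 genes, and how high they would be without any relation was not tested.

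**Figure D5:**
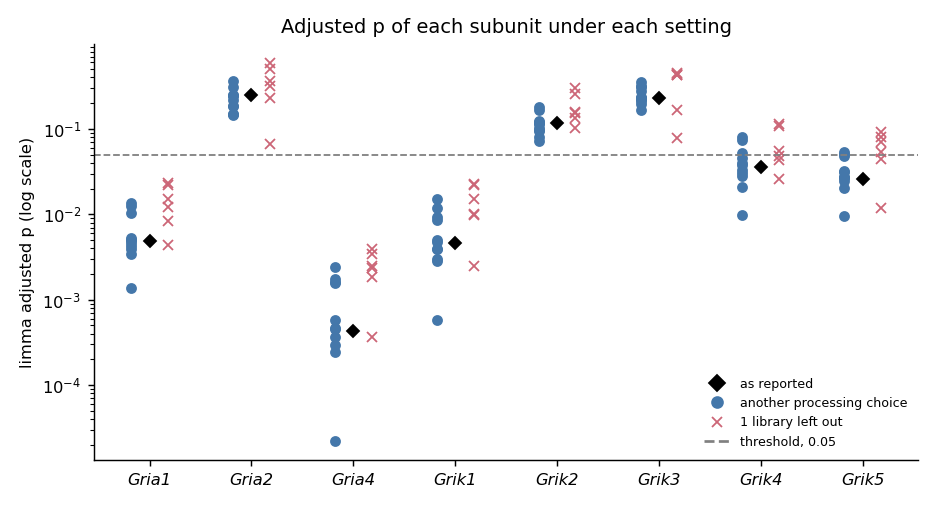
Limma adjusted p (log axis) of each subunit gene as reported (black), under 11 other processing choices (blue) and with 1 library left out (red crosses); the dashed line is the threshold of 0.05. For Gria1, Gria4 and Grik1 every point is below the line, with the highest at 0.0231, and for Grik4 and Grik5 points fall on both sides.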

How the data were processed

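The 6 libraries were grouped by their titles. The deposited tables gave FPKM for each Ensembl gene, computed by the authors, with coordinates and exon length per the file headers. The submitters' processing notes name featureCounts 2.0.1, STAR 2.7.10a, cutadapt 1.16, Trimmomatic 0.36, Trim Galore 0.4.4 and build mRatBN7.2, without settings. FPKM times length was a whole multiple of 1 step (within 0.05) for 100% of values, which gave reads and depth.

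Genes that averaged 0.5 FPKM or more (15247) were tested with limma 3.58.1 in R 4.3.3 on log2(FPKM + 1), which understates changes of low genes, with group as the only term, a trend on the mean, two-sided tests and Benjamini-Hochberg adjustment, and the script was checked on simulated data. Folds are ratios of group means. For a repeated symbol the ID with the larger mean was kept. The subunit genes, the lists and the tests were chosen with earlier results of these data known. Named genes were the subunit genes, up to 4 called genes per list by absolute log2 fold change (or 2 by p), and the 3 genes most like each of 2 subunit genes; Shisa7, Zfp574, Mir2985 and markers stand beside them.

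Alternatives were pseudocounts of 0.1 and 0.5, no filter, a filter at 2 FPKM, median-ratio and quantile scaling, limma without trend and robust, the replicate number as a block, limma-voom on reads, reads in place of FPKM for shares, and leaving out each library. A covariate for Y-linked RNA (Eif2s3y above 1 FPKM, in 1 control and 2 CR libraries) was added after seeing the data. The orientation of the RefSeq promoter windows was checked by TATA box positions on each strand.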

Additional observations from a re-analysis of the deposited data

How the results depend on the processing

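The calls and directions of Gria1, Gria4 and Grik1, and the lack of a call for Gria2, Grik2 and Grik3, held under all 17 alternatives. The log2 fold change ranged from 0.98 to 1.12 for Gria4, from 0.64 to 0.89 for Grik1 and from -0.42 to -0.31 for Gria1. Beside the left-out libraries given above, Grik4 lost its call with no filter (adjusted p = 0.0813), with the replicate block (0.0520) and with the Y-linked covariate (0.0738), and Grik5 without the trend (0.0508) and with the replicate block (0.0542); the cause was not tested. Cacng5 lost its call with no filter (0.0858) and with the replicate block (0.0511). The count of called subunit genes was 3 with the replicate block and 3 to 5 with 1 library left out, and that of all genes 3210 to 5042 with 1 library left out. Whether the replicate numbers pair the libraries is not stated. Same-numbered libraries correlated at 0.0245, 0.0198 and 0.0454 in their deviations from group means over genes. Each library correlated best with its own number. Values this small from so few libraries cannot decide on pairing. With the replicate block 4445 genes were called, and no subunit gene or named list gene other than Grik4, Grik5 and Cacng5 lost its call. Called scaffold and trafficking genes numbered 8, and 5 to 10 with 1 library left out; among AMPA receptor partners the Y-linked covariate gave 9 higher and 1 lower in place of 10 and 0. The AMPA sum as a percent of neuron markers differed by -0.20 (CR minus control), and by -0.50 to 0.13 with 1 library left out, above 0 only without control replicate 3; no other share or ratio changed sign. In reads in place of FPKM, which do not divide by length, the share of Gria1 differed by -4.37 percentage points in place of -7.17, and that of Gria2 by -6.08 in place of -3.97, so which of them differed more depends on the unit. The sums over neuron markers differed by -0.36 (AMPA) and 0.40 (kainate) percentage points in reads. Of all calls 52.3% were higher in CR, and 47.1% and 46.9% with median-ratio and quantile scaling. With 3 libraries per group, no exact test over libraries could go below 0.10, and intervals for Grik4 rest on 189 reads in the shallowest library.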
